A study of Drosophila melanogaster with 8 samples.

Results

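Accessory gland and seminal fluid proteins were followed in testis RNA of Drosophila melanogaster, as every row of the count table whose symbol began with Acp and 2 digits, Sfp and a digit, or Mst57D. Sfp60F and the cuticle genes that start with Acp65 were left out by that rule. It took 47 of 22887 features: 17 Acp, 27 Sfp and 3 Mst57D genes, of which 23 lay on chromosome arm 2L, 7 on 2R, 8 on 3L and 9 on 3R. All 47 passed the filter on low counts. Total RNA came from testes of 5-day-old flies in 4 groups of 2 libraries, each from an independent dissection: w1118 as the control, mutants of Tailor, mutants of Dis3L2, and flies mutant in both genes, called the double mutant. Which alleles these were, and in which strain they were made, is not given in the sources used here.

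The paired accessory glands of the male secrete most of the protein of the seminal fluid. These proteins pass to the female with the sperm, where they act on egg laying, sperm storage, remating and the mating plug. The glands are a separate organ from the testes, joined to the same tract by the ejaculatory duct, and the duct and the ejaculatory bulb behind it secrete further seminal proteins. Tailor is a terminal uridylyltransferase, which adds U to RNA 3' ends, and Dis3L2 is an exonuclease that degrades uridylated RNA.

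Total counts ranged from 9781275 to 30059737 per library, and ribosomal RNA features took 1.43% to 24.6% of them. Levels are given as CPM, the read count brought to a common library size after scaling. Tailor had 82.6 and 87.0 CPM in w1118 and 18.98 to 22.8 CPM in the 4 libraries labelled as carrying a Tailor mutation. The Dis3L2 gene, listed as CG16940, had 115.0 and 116.6 CPM (w1118), 89.6 and 93.9 CPM (Tailor mutant), 9.99 and 10.6 CPM (Dis3L2 mutant) and 30.7 and 30.8 CPM (double mutant). All 15 testis germ cell markers were present, with a summed level of 4971 to 6923 CPM. The other lists ranged from 373.2 to 782.4 CPM for 6 muscle genes, 75.7 to 215.7 CPM for 6 fat body genes and 0.801 to 636.1 CPM for 8 midgut enzymes, highest in w1118 replicate 2.

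The 47 seminal fluid genes together took 2.46% and 2.44% of a library's counts (w1118), 5.36% and 1.73% (Tailor mutant), 0.565% and 1.01% (Dis3L2 mutant) and 2.58% and 1.86% (double mutant). At the scaled library size their summed level relative to the w1118 mean was 1.05 and 0.949 (w1118), 2.99 and 0.766 (Tailor mutant), 0.283 and 0.387 (Dis3L2 mutant) and 1.1 and 0.84 (double mutant). Both Dis3L2 mutant libraries thus lay below every other library, Tailor mutant replicate 1 lay above every other library, and Tailor mutant replicate 2 lay below w1118. The summed level of other secreted gland proteins, a list of 23 genes with no member of the 47, was likewise highest in Tailor mutant replicate 1 and lowest in the Dis3L2 mutant. It was 26560 and 25740 CPM (w1118), 59050 and 19320 CPM (Tailor mutant), 9676 and 12490 CPM (Dis3L2 mutant) and 22890 and 18180 CPM (double mutant). Not every gene of that list did so: Obp56g was highest in Tailor mutant replicate 2 and CG11598 in Dis3L2 mutant replicate 2. Others were highest in Tailor mutant replicate 1 but lowest outside the Dis3L2 mutant. These were Spn77Bb, Spn77Bc and Obp56e, lowest in Tailor mutant replicate 2, and Obp51a, Obp56f and CG10433, lowest in double mutant replicate 2. Over the same libraries the summed germ cell markers moved between 4971 and 6923 CPM. Single markers ranged from 1.23-fold for bam to 2.19-fold for Mst98Cb. The gene paired (prd), a transcription factor needed for gland development, moved between 55.9 and 71.2 CPM. The other 3 gland regulators moved more, Abd-B from 15.6 to 35.5 CPM, EcR from 6.48 to 16.9 CPM and dve from 7.23 to 15.9 CPM, each highest in Tailor mutant replicate 2. The labels name testes as the only tissue dissected. In bulk RNA fewer gland cells in a dissection and less RNA per gland cell cannot be told apart, and the part of gland tissue in the differences below was not tested.

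**Figure D1:**
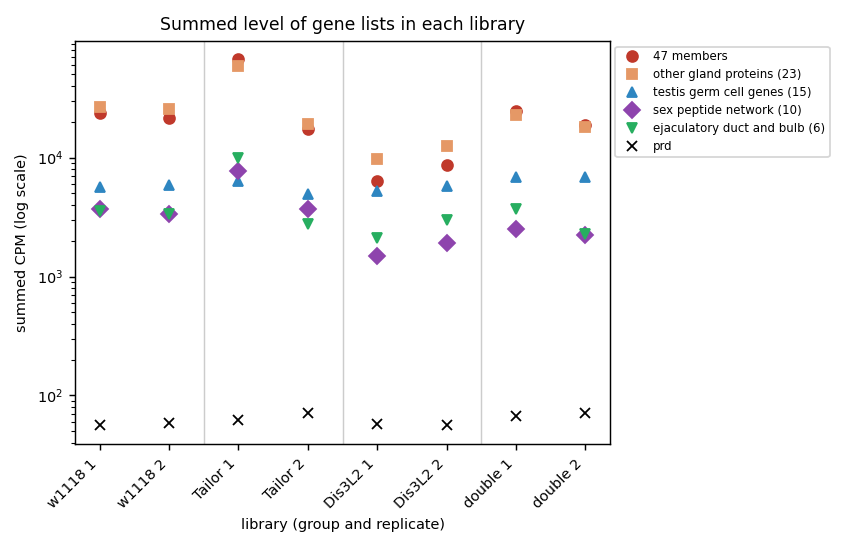
Summed CPM (log axis) of 5 gene lists and the level of prd in each of the 8 libraries, with vertical lines between the groups. The 47 seminal fluid genes peak in Tailor mutant replicate 1 at 67388 CPM and are lowest in the Dis3L2 mutant at 6360 and 8707 CPM. The sum of the testis germ cell genes lies between 4971 and 6923 CPM.

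The sums rested on few genes. Acp36DE, a glycoprotein needed for sperm storage in the mated female (FBgn0011559, 2L:18356047-18359028, minus strand), alone gave 21.3% to 27.5% of the members' counts. With Mst57Db, a short male-specific secreted peptide, and Acp95EF it gave 38.7% to 47.8%. Per kb of annotated exon the highest mean levels over the 8 libraries were 13346 CPM for Mst57Db, 8048 for Acp95EF, 4734 for Mst57Da, 3501 for Acp98AB and 2539 for Acp53Ea. The first 4 kept that order in each of the 8 libraries. Next came Acp53C14b with 2104 CPM per kb, Acp36DE with 2068, Acp53C14a with 1727 and Acp33A with 1687, which lay closer together than the libraries of one gene did. At the other end stood Sfp24Bc with 1.2 CPM per kb. The exons of Acp95EF lie wholly within those of Spase22-23 on the other strand, and those of Sfp84E and Sfp78E overlap other genes in part. The strand setting of the counting is not given in the sources used here, so the levels of these 3 genes are uncertain. Close paralogs, such as the Acp53C14 genes, the Sfp24B and Sfp33A genes and the Mst57D genes, may share reads.

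Acp36DE had 5348 and 5586 CPM (w1118), 17863 and 4517 CPM (Tailor mutant), 1358 and 1851 CPM (Dis3L2 mutant) and 6826 and 5000.5 CPM (double mutant). Mst57Db had 2605 and 2352 CPM (w1118), 8027 and 1282 CPM (Tailor mutant), 533 and 807 CPM (Dis3L2 mutant) and 2762 and 2451 CPM (double mutant). Tailor mutant replicate 1 was the highest library for both and the Dis3L2 mutant the lowest, with w1118, Tailor mutant replicate 2 and the double mutant between them. Acp26Aa, the prohormone ovulin, which raises the rate of ovulation, had 833 and 763 CPM (w1118), 2736 and 589.8 CPM (Tailor mutant), 260.4 and 338 CPM (Dis3L2 mutant) and 1142 and 933 CPM (double mutant). Acp62F, a trypsin inhibitor, had 320.3 and 334 CPM (w1118), 2268 and 335 CPM (Tailor mutant), 101 and 129 CPM (Dis3L2 mutant) and 654 and 592 CPM (double mutant). The same 2 Dis3L2 libraries were the lowest for both genes, and Acp62F was higher in both double mutant libraries than in w1118. Mst57Da had 2018 and 1631 CPM (w1118), 3700.1 and 1116 CPM (Tailor mutant), 440.1 and 718 CPM (Dis3L2 mutant) and 1266 and 1419 CPM (double mutant). Acp95EF had 1659 and 1543 CPM (w1118), 6241 and 1436 CPM (Tailor mutant), 571 and 718 CPM (Dis3L2 mutant) and 1881 and 1595 CPM (double mutant). Of the 10 members with the highest mean CPM, all 10 were highest in Tailor mutant replicate 1 and lowest in a Dis3L2 mutant library.

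**Figure D2:**
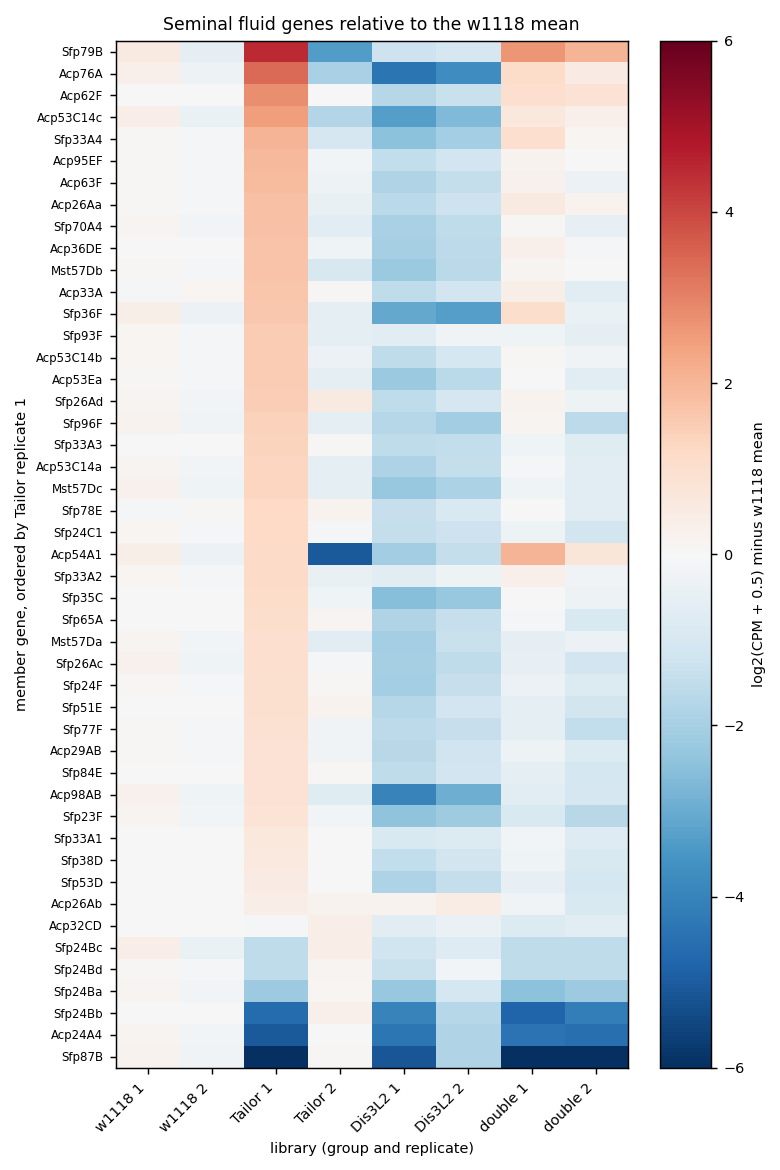
Level of each of the 47 genes in each library as log2(CPM + 0.5) minus the w1118 mean, ordered by Tailor mutant replicate 1; colours stop at 6 on either side, which Sfp87B passes. Most genes are high in Tailor mutant replicate 1 and low in both Dis3L2 mutant libraries, and 6 genes at the bottom are low in Tailor mutant replicate 1 and the double mutant.

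Seminal fluid genes lay lower in the Dis3L2 mutant than in w1118 almost throughout. Of the 47, 46 were lower in both Dis3L2 libraries than in both w1118 libraries, against 30.8% of all features tested, and the exception was Acp26Ab, above both, where 31% of all features were above. The median log2 fold change of the 47 was -1.62, against 0 for all 14246 features tested. In edgeR's quasi-likelihood test with Benjamini-Hochberg adjustment, 11 fell and 0 rose, where 4.53% of all features were called lower and 4.7% higher. An unadjusted p under 0.05 was reached by 34, all lower, and DESeq2 called 20. The 11 were Acp98AB, Sfp23F, Sfp24F, Sfp26Ac, Sfp35C, Sfp36F, Sfp38D, Sfp51E, Sfp53D, Sfp65A and Sfp84E. Leaving out w1118 replicates 1 and 2 in turn gave 0 and 2 calls, leaving out Dis3L2 mutant replicates 1 and 2 gave 0 and 1, and leaving out either Tailor mutant library gave 39. With the summed level of 33 other gland genes as a covariate the median was -0.33, and 12 members were called, 8 lower and 4 higher, 5 of them among the 11. That covariate was itself lowest in the Dis3L2 mutant, where 4 sex peptide network genes and 6 other gland genes in it were called lower. This fit therefore cannot tell the level of gland RNA apart from an effect of the mutation.

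Acp98AB (FBgn0263597, 3R:27694883-27695057, plus strand) had 1032 and 699.5 CPM (w1118), 1529.7 and 513 CPM (Tailor mutant), 51.5 and 109.6 CPM (Dis3L2 mutant) and 550.2 and 416 CPM (double mutant). Its Dis3L2 mutant libraries lay far below the other 6, and its log2 fold change was -3.42 ± 0.59 (adjusted p = 0.0144). Its share of the members' counts was 0.81% and 1.26% in the Dis3L2 mutant and 2.2% to 4.36% in the other 6 libraries. Sfp36F (FBgn0261057, 2L:18292522-18292833, plus strand) had 16.8 and 10.3 CPM (w1118), 41.2 and 8.96 CPM (Tailor mutant), 1.13 and 0.9 CPM (Dis3L2 mutant) and 28.02 and 9.97 CPM (double mutant). It was close to 1 CPM in both Dis3L2 libraries and changed by -3.75 ± 0.87 (adjusted p = 0.0397). Sfp35C (FBgn0259965, 2L:15201613-15202092, minus strand) had 89.2 and 91.9 CPM (w1118), 195 and 76.8 CPM (Tailor mutant), 15.1 and 18.4 CPM (Dis3L2 mutant) and 91.7 and 72.5 CPM (double mutant). The Dis3L2 mutant again stood apart from all other libraries, at -2.43 ± 0.40 (adjusted p = 0.0126). Sfp23F had 56.2 and 43.8 CPM (w1118), 89.5 and 44.5 CPM (Tailor mutant), 8.99 and 10.8 CPM (Dis3L2 mutant) and 25.8 and 15.4 CPM (double mutant). It changed by -2.33 ± 0.38 (adjusted p = 0.0122), and its double mutant libraries also lay below w1118.

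The other 7 fell by less. Sfp53D had 110.3 and 109 CPM (w1118), 152 and 109.97 CPM (Tailor mutant), 30.3 and 41.04 CPM (Dis3L2 mutant) and 77.6 and 53.4 CPM (double mutant), and at -1.62 ± 0.24 it had the lowest adjusted p of the 11, 0.00905. Its w1118 libraries differed by about 1 CPM. Sfp51E had 139 and 135 CPM (w1118), 268 and 158 CPM (Tailor mutant), 42.02 and 61.03 CPM (Dis3L2 mutant) and 92 and 64.2 CPM (double mutant), a change of -1.41 ± 0.30 (adjusted p = 0.029). Sfp24F had 103 and 95.8 CPM (w1118), 195 and 103 CPM (Tailor mutant), 23.4 and 37.7 CPM (Dis3L2 mutant) and 76.7 and 56.9 CPM (double mutant), a change of -1.70 ± 0.34 (adjusted p = 0.0248). In both genes the Tailor mutant lay at or above w1118 and the double mutant between w1118 and the Dis3L2 mutant. Sfp26Ac changed by -1.81 ± 0.42 (adjusted p = 0.0394) and Sfp65A by -1.57 ± 0.35 (adjusted p = 0.0348). Sfp84E and Sfp38D showed the smallest falls, -1.35 ± 0.29 (adjusted p = 0.0322) and -1.30 ± 0.28 (adjusted p = 0.0294). Of the abundant members with known roles, Acp36DE was at -1.77 ± 0.57 (adjusted p = 0.102), Acp26Aa at -1.41 ± 0.59 (adjusted p = 0.195) and Acp62F at -1.51 ± 0.71 (adjusted p = 0.244). The C-type lectin Acp29AB, which helps to retain stored sperm, had 133 and 123 CPM (w1118), 237 and 112 CPM (Tailor mutant), 40.1 and 55.8 CPM (Dis3L2 mutant) and 102 and 71.6 CPM (double mutant), a change of -1.42 ± 0.35 (adjusted p = 0.0504). None of these 4 passed the test, although their Dis3L2 libraries were the 2 lowest of the 8.

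**Figure D3:**
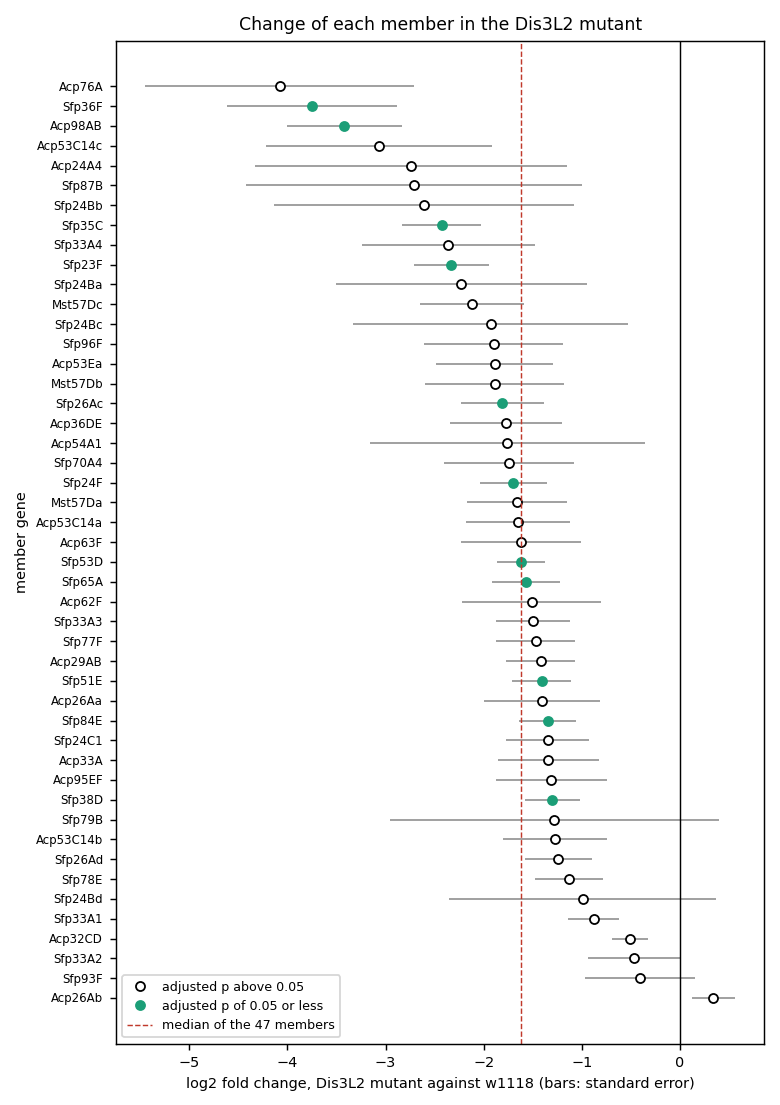
Log2 fold change of each of the 47 genes in the Dis3L2 mutant against w1118, with bars for the standard error of the edgeR fit; filled points had an adjusted p of 0.05 or less and the dashed line is the median of -1.62. All genes but Acp26Ab lie left of 0, and the 11 filled points are spread over the range.

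Against w1118, edgeR called no member in the Tailor mutant, although most lay above 0. The log2 fold changes had a median of 0.64, against 0.02 for all features, and 41 of 47 were above 0. The count called was 0 of 47 in either direction, against 1.22% of all features higher and 0.779% lower. An unadjusted p under 0.05 was reached by 2, both higher, and DESeq2 called 1, higher. Both Tailor libraries were above both w1118 libraries for 9 members, against 21% of all features, and below them for 0, against 23.2%. The 2 Tailor libraries went apart. Replicate 1 was above replicate 2 in 40 of the 47, more than 2-fold in 30, with a median ratio of 2.54, where the 2 w1118 libraries had a median ratio of 1.13. Without Tailor mutant replicate 1 the median was -0.16 and 2 members were called lower. It was 1.15 without Tailor mutant replicate 2, with 23 called higher and 3 lower, and 0.04 with the gland covariate.

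The double mutant had 1 member called against w1118. The median log2 fold change of the 47 was -0.44, against -0.06 for all features. It was -0.25 without w1118 replicate 1, -0.16 without double mutant replicate 2 and -0.03 with the gland covariate. Only Acp32CD was called, lower, where 4.91% of all features were called lower and 6.66% higher. An unadjusted p under 0.05 was reached by 12, all lower, and DESeq2 called 9. Both double mutant libraries were below both w1118 libraries for 24 members, against 38% of all features, and above them for 6, against 31.9%. Acp32CD (FBgn0023415, 2L:11015620-11016571, plus strand) had 470.2 and 489 CPM (w1118), 450.01 and 628 CPM (Tailor mutant), 311 and 363 CPM (Dis3L2 mutant) and 274 and 305 CPM (double mutant). Its double mutant libraries were the 2 lowest, and it changed by -0.73 ± 0.18 (adjusted p = 0.0439). Both this call and the number called depended on which library was left out. With the gland covariate 24 were called, 11 lower and 13 higher.

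The double mutant was also set against each single mutant. Against the Dis3L2 mutant, 3 of the 47 rose, Sfp35C by 2.29 ± 0.40 (adjusted p = 0.0179), Sfp36F by 4.26 ± 0.88 (adjusted p = 0.0286) and Acp98AB by 2.58 ± 0.57 (adjusted p = 0.0337), and 0 fell. In this comparison 4.77% of all features were called higher and 4.27% lower. The median of the 47 was 1.13, or 0.7 without double mutant replicate 1 and 0.31 with the gland covariate, and 37 were above both Dis3L2 libraries in both double mutant libraries, against 28% of all features, while 7 were below them, against 31.7%. The number called depended on which library was left out, and some of those fits also called members lower. Over these fits the median ran from 0.7 to 1.34. These results share the Dis3L2 libraries with the comparison against w1118 and are no second observation of the same genes.

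Against the Tailor mutant, 6 fell in the double mutant and 0 rose, where 6.54% of all features were called lower and 8.13% higher. They were Acp26Ab (-0.83 ± 0.22, adjusted p = 0.045), Acp32CD (-0.90 ± 0.18, adjusted p = 0.0218), Sfp23F (-1.68 ± 0.37, adjusted p = 0.0274), Sfp51E (-1.44 ± 0.30, adjusted p = 0.0228), Sfp53D (-1.0 ± 0.24, adjusted p = 0.0354) and Sfp84E (-1.28 ± 0.29, adjusted p = 0.0304). The median was -1.12, and 17 members were below both Tailor libraries in both double mutant libraries, against 29.8% of all features. Without Tailor mutant replicate 1 the median was -0.11 and 18 members were called, 10 lower and 8 higher. There were 38 without Tailor mutant replicate 2, all lower. The count was 0 without either w1118 library or double mutant replicate 2 and 1 without double mutant replicate 1.

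The single mutants were also set against each other. Of the 47, 34 were lower in the Dis3L2 mutant than in the Tailor mutant and 0 higher, where 6.93% of all features were called lower and 6.02% higher. The median log2 fold change was -2.28, and 36 members did not overlap, against 25.1% of all features. Acp36DE differed by -2.80 ± 0.59 (adjusted p = 0.0243), Acp26Aa by -2.47 ± 0.61 (adjusted p = 0.0403) and Acp62F by -3.50 ± 0.76 (adjusted p = 0.0267). The 13 not called were Acp26Ab, Acp32CD, Acp54A1, Sfp33A2, Sfp79B, Sfp93F, Sfp96F, Sfp87B, Acp24A4 and the 4 Sfp24B genes. With only the 4 compared libraries fitted the count was 7, and with the gland covariate it was 12, 9 lower and 3 higher, with a median of -0.53. Without Dis3L2 mutant replicates 1 and 2 it was 1 and 6. Leaving out w1118 replicates 1 and 2 gave 18 and 19 calls, and leaving out either library of the double mutant gave 20. The median was -1.36 without Tailor mutant replicate 1. The interaction, which asks whether the log2 changes of the single mutants add up in the double mutant, was called for 0 of the 47, against 1.99% of all features higher and 2.08% lower. An unadjusted p under 0.05 was reached by 3 above 0 and 1 below, and DESeq2 called 2. Without Tailor mutant replicate 1 it was called for 21, all higher, and without Tailor mutant replicate 2 for 2.

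A group of 6 members, picked after their values were seen, went another way: Sfp87B, Acp24A4, Sfp24Ba, Sfp24Bb, Sfp24Bc and Sfp24Bd. Each had under 0.1 times the CPM in Tailor mutant replicate 1 that it had in replicate 2. Their counts summed to 2906 and 2649 (w1118), 10 and 3287 (Tailor mutant), 46 and 817 (Dis3L2 mutant) and 15 and 10 (double mutant). Tailor mutant replicate 2 was at the w1118 level, Dis3L2 mutant replicate 2 lay below it, and the other 4 mutant libraries were nearly empty of these transcripts. The way they were picked fixed a low level in Tailor mutant replicate 1 relative to replicate 2. Of the other 41 members, 38 were highest in Tailor mutant replicate 1. Sfp87B (FBgn0259975, 3R:12273126-12273521, plus strand) had 103 and 74.97 CPM (w1118), 0.3 and 93.9 CPM (Tailor mutant), 2.06 and 24.7 CPM (Dis3L2 mutant) and 0.19 and 0.42 CPM (double mutant). Acp24A4 (FBgn0051779, 2L:3693184-3693905, minus strand) had 18.4 and 14.1 CPM (w1118), 0 and 15.9 CPM (Tailor mutant), 0.33 and 4.28 CPM (Dis3L2 mutant) and 0.26 and 0.21 CPM (double mutant). Sfp24Bb (FBgn0259952, 2L:3669261-3669775, minus strand) had 14.4 and 13.8 CPM (w1118), 0.1 and 17.3 CPM (Tailor mutant), 0.4 and 4.02 CPM (Dis3L2 mutant) and 0.03 and 0.31 CPM (double mutant). All 3 were high in both w1118 libraries and Tailor mutant replicate 2 and at most 0.42 CPM in Tailor mutant replicate 1 and the double mutant.

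None of the 6 was called in any comparison of this fit. In the double mutant against w1118 the log2 fold change was -8.43 ± 2.58 for Sfp87B (adjusted p = 0.0766), -6.98 ± 2.28 for Sfp24Bb (adjusted p = 0.0909) and -6.03 ± 2.11 for Acp24A4 (adjusted p = 0.108). Sfp24Bc and Sfp24Bd had 0 counts in both double mutant libraries and 43 each in w1118, which makes each at least 12.8-fold lower with 3 counts put over the group. Sfp24Ba had 1 count against 101 and was 90.4-fold lower (exact 95% interval 15.9 to 3610, counting error only). Sfp87B passed the test when only the 4 compared libraries were fitted (adjusted p = 0.000638), without Tailor mutant replicates 1 and 2 (0.00563 and 0.0052), with DESeq2 (0.00115), with no filter on low counts (0.021) and with the gland covariate (0.00993). It did not pass without any one library of w1118, the Dis3L2 mutant or the double mutant (0.0933 to 0.283), nor under the other 5 settings tried (0.0572 to 0.0778).

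The same course appeared in genes outside the 47. Ebp, a protein of the ejaculatory bulb that takes part in the mating plug, had 229 and 241 CPM (w1118), 1.5 and 358 CPM (Tailor mutant), 7.79 and 119 CPM (Dis3L2 mutant) and 0.67 and 1.45 CPM (double mutant). EbpII, of the same family, had 70.2 and 64.9 CPM (w1118), 0.15 and 103 CPM (Tailor mutant), 1.73 and 27 CPM (Dis3L2 mutant) and 0.1 and 0.21 CPM (double mutant). Sfp60F, the seminal fluid gene that the rule left out, had 54.5 and 44.3 CPM (w1118), 0.1 and 82.8 CPM (Tailor mutant), 1.60 and 23.1 CPM (Dis3L2 mutant) and 0.03 and 0.31 CPM (double mutant). The summed CPM of the 6 was 0.294 to 0.714 times that of Ebp in each of the 8 libraries, although the level of Ebp itself ran from 0.674 to 358 CPM. In w1118 replicate 1, Sfp87B alone gave 103 of the 141 CPM of that sum. Single genes held the ratio to Ebp less closely: 0.2 to 0.45 for Sfp87B, 0 to 0.381 for Acp24A4 and 0.0338 to 0.214 for Sfp24Bb. In Tailor mutant replicate 1 and double mutant replicates 1 and 2, the sum was 10, 15 and 10 counts. Ebp had 30, 21 and 14 counts there. Per 1000 CPM of the other 41 members, the 6 had 0.00743 and 7.72 CPM in Tailor mutant replicates 1 and 2, the libraries used to pick them. That contrast was therefore fixed by the picking. In the other groups they had 5.99 and 5 CPM (w1118), 0.482 and 4.03 CPM (Dis3L2 mutant) and 0.0194 and 0.0549 CPM (double mutant). The rest of the duct and bulb list did not share it: Est-6, Anp and Gld were highest in Tailor mutant replicate 1, and EbpIII was the one list gene that rose in the Dis3L2 mutant (1.28 ± 0.20, adjusted p = 0.0101). The 4 Sfp24B genes are neighbours on 2L (3667977 to 3670581), and Acp24A4 lies further along the arm. Between Acp24A4 and the next member, Sfp24C1 (FBgn0259956, 2L:3700674-3701092, plus strand), lie 6768 bases. Sfp24C1 had 86.7 and 71.96 CPM (w1118), 179.9 and 73.8 CPM (Tailor mutant), 29.03 and 33.2 CPM (Dis3L2 mutant) and 63.7 and 36.5 CPM (double mutant), and was highest in Tailor mutant replicate 1 and lowest in the Dis3L2 mutant.

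**Figure D4:**
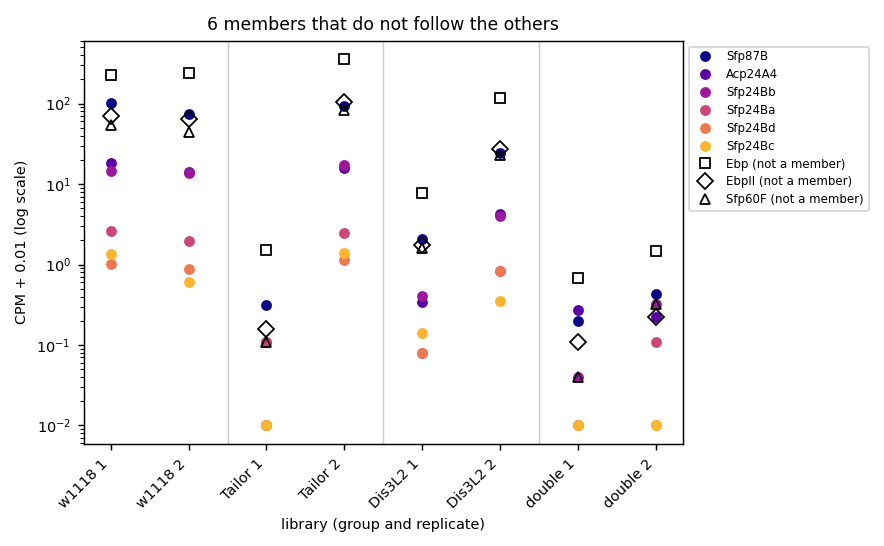
Level of 6 seminal fluid genes (filled circles) and of 3 genes outside the 47 (open symbols) in each library, as CPM + 0.01 on a log axis, so that a point at the bottom is 0 CPM. All 9 genes are high in w1118 and Tailor mutant replicate 2, below that in Dis3L2 mutant replicate 2 and lowest in the other 4 libraries.

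Other members moved over a far wider range than the rest. Among the 41, the ratio of the highest to the lowest library had a median of 9.02, from 2.3 to 327, with 8 genes over 20 and 3 under 3. Acp76A, a serine protease inhibitor of the serpin family (FBgn0015586, 3L:19050757-19052026, minus strand), had 314 and 208 CPM (w1118), 2677 and 66.2 CPM (Tailor mutant), 11.8 and 18.8 CPM (Dis3L2 mutant) and 542 and 357 CPM (double mutant). Sfp79B (FBgn0259973, 3L:22080322-22080554, plus strand) had 25.2 and 11.4 CPM (w1118), 394 and 1.21 CPM (Tailor mutant), 6.93 and 8.05 CPM (Dis3L2 mutant) and 109 and 70.8 CPM (double mutant). For both, Tailor mutant replicate 1 was the highest library and the 2 Tailor libraries differed 40.4-fold for Acp76A and 327-fold for Sfp79B. Acp54A1 had 349.6 and 209.9 CPM (w1118), 607 and 7.88 CPM (Tailor mutant), 63.7 and 102 CPM (Dis3L2 mutant) and 1107 and 448 CPM (double mutant). It was highest in double mutant replicate 1 and lowest in Tailor mutant replicate 2. Double mutant replicate 2, at 448 CPM, lay below Tailor mutant replicate 1, at 607 CPM. These 3 were named for the size of their change, and none was called against w1118. In the Tailor mutant the log2 fold change was 3.44 ± 1.71 for Sfp79B (adjusted p = 0.416) and 2.39 ± 1.25 for Acp76A (adjusted p = 0.441). Without Tailor mutant replicate 1 these turned to -3.91 (adjusted p = 0.0238) and -1.97 (adjusted p = 0.0503). Acp76A had, in the Dis3L2 mutant, -4.08 ± 1.37 (adjusted p = 0.115), the lowest value of the 47.

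Acp26Ab and Acp32CD varied least. Acp26Ab (FBgn0002856, 2L:5892298-5892862, minus strand), a small peptide gene, had 307 and 317 CPM (w1118), 411 and 359 CPM (Tailor mutant), 363 and 426 CPM (Dis3L2 mutant) and 266 and 167 CPM (double mutant). It was the one member above both w1118 libraries in both Dis3L2 libraries, by 0.34 ± 0.22 (adjusted p = 0.4), and it was lowest in the double mutant. Its neighbour Acp26Aa (FBgn0002855, 2L:5892883-5893896, minus strand) lies upstream of it, with 20 bases between the genes. The ratio of Acp26Aa to Acp26Ab in CPM, not scaled by length, was 2.72 and 2.4 (w1118), 6.65 and 1.64 (Tailor mutant), 0.717 and 0.795 (Dis3L2 mutant) and 4.3 and 5.59 (double mutant). Per kb of exon, Acp26Aa lay below Acp26Ab in both Dis3L2 libraries and in Tailor mutant replicate 2, and above it in the other 5 libraries. Acp32CD and Acp26Ab ranged 2.3-fold and 2.55-fold over the 8 libraries. Sfp33A1 ranged 2.96-fold, and Sfp93F, which had 332 and 281 CPM (w1118), 885 and 206 CPM (Tailor mutant), 192 and 268 CPM (Dis3L2 mutant) and 258 and 203 CPM (double mutant), ranged 4.6-fold.

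In all, 18 of the 47 members lay in 5 runs on the chromosomes with at most 5000 bases between neighbours. Within a run some members kept a near constant ratio and others did not. The ratio of Acp53C14a to Acp53C14b stayed between 0.832 and 1.18, and that of Acp53Ea to Acp53C14b between 0.647 and 1.05. The next gene of that run, Acp53C14c, had 68.6 and 38.03 CPM (w1118), 296 and 14.8 CPM (Tailor mutant), 4.79 and 7.70 CPM (Dis3L2 mutant) and 80.3 and 64.2 CPM (double mutant). The ratio of Acp53C14a to Acp53C14c therefore ran from 11 in Tailor mutant replicate 1 to 75.2 in Dis3L2 mutant replicate 1. On 3R the ratio of Mst57Db to Mst57Da stayed between 1.12 and 2.18 and that of Mst57Da to Mst57Dc between 2.76 and 4.91. The ratio of Mst57Db to Sfp96F, of the same run, ran from 12 to 50.1.

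**Figure D5:**
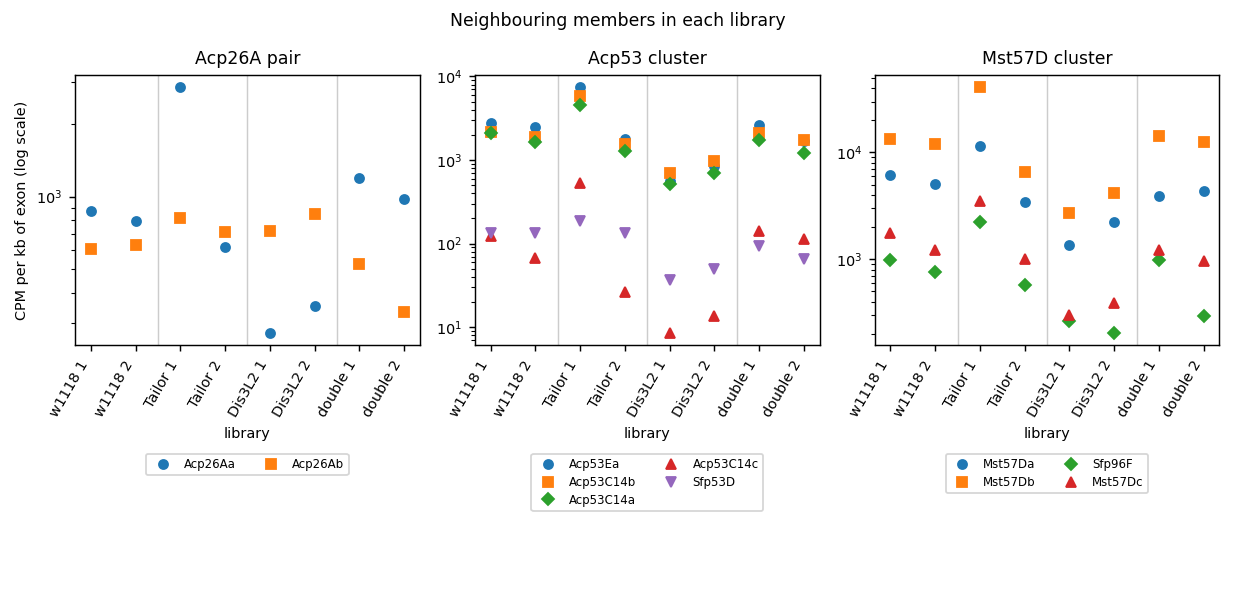
CPM per kb of exon (log axis) in each library for neighbouring genes of 3 runs. Acp26Aa lies below Acp26Ab in the Dis3L2 mutant and Tailor mutant replicate 2 and above it elsewhere, Acp53C14c spreads more widely than Acp53C14a, Acp53C14b and Acp53Ea, and the Mst57D genes stay in the order Mst57Db, Mst57Da, Mst57Dc.

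Sex peptide (SP) is the seminal peptide that switches the female to egg laying and refusal of further males, and a network of gland proteins binds it to sperm. The list used for this network also holds SP itself and Dup99B, a peptide gene of the ejaculatory duct. All 10 genes of the list were tested. Of these, 4 fell in the Dis3L2 mutant against w1118 and 0 rose, where 4.53% of all features were called lower, with a median of -1.08. They were the cysteine-rich secretory protein gene antr (-1.33 ± 0.19, adjusted p = 0.0076), the protease homologue CG9997 (-1.12 ± 0.22, adjusted p = 0.0244), Sems (-1.07 ± 0.22, adjusted p = 0.0247) and intr (-0.87 ± 0.21, adjusted p = 0.0472). In the double mutant 3 fell, antr (-0.86 ± 0.19, adjusted p = 0.0298), lectin-46Ca (-0.85 ± 0.21, adjusted p = 0.0433) and lectin-46Cb (-0.79 ± 0.18, adjusted p = 0.0323), where 4.91% of all features were called lower, with a median of -0.65. In the Tailor mutant 0 were called and the median of the 10 was 0.34. Against the Tailor mutant, all 10 were lower in the Dis3L2 mutant (6.93% of all features) and 7 in the double mutant (6.54%), with medians of -1.42 and -0.99. SP itself had 593 and 434 CPM (w1118), 999 and 445 CPM (Tailor mutant), 212 and 256 CPM (Dis3L2 mutant) and 371 and 319 CPM (double mutant). It was lowest in the Dis3L2 mutant and was not called there (-1.13 ± 0.36, adjusted p = 0.0974).

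Of the 23 other gland proteins, 6 fell in the Dis3L2 mutant and 0 rose, against 4.53% of all features lower, with a median of -1.27. Of these 6, BG642312 showed the widest fall (-3.12 ± 0.58, adjusted p = 0.0187), and the lipase-family genes CG31872 (-1.97 ± 0.40, adjusted p = 0.0255) and CG17097 (-1.60 ± 0.28, adjusted p = 0.0151) were the most counted of the 6. CG14034 (-1.62 ± 0.30), BG642163 (-1.28 ± 0.29) and Obp56i (-1.39 ± 0.15) were the others. In the Tailor mutant 1 of the 23 fell, against 0.779% of all features, and in the double mutant 2 did, against 4.91%. Against the Tailor mutant, 14 were lower and 1 higher in the Dis3L2 mutant, where 6.93% of all features were called lower and 6.02% higher. In the double mutant 3 were lower than in the Tailor mutant, where 6.54% of all features were called lower. The lipase-family gene CG11598 fell against w1118 in both the Tailor mutant and the double mutant. It had 25.4 and 29.6 CPM (w1118), 8.56 and 9.92 CPM (Tailor mutant), 30.96 and 45.9 CPM (Dis3L2 mutant) and 5.33 and 4.99 CPM (double mutant). All 4 libraries labelled with a Tailor mutation were below the other 4, at -1.57 ± 0.22 for the Tailor mutant (adjusted p = 0.0182) and -2.41 ± 0.23 for the double mutant (adjusted p = 0.00211), and no member of the 47 showed that order. The 4 gland regulators tested, the transcription factors prd, Abd-B, dve and EcR, had a median log2 fold change of 0.24 (Tailor mutant), 0 (Dis3L2 mutant) and -0.39 (double mutant).

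The 5 genes outside the 47 whose CPM ranked most like the members' sum over the 8 libraries were CG42465, CG18539, CG42481, CG43145 and CG43789, among 9483 features with a mean of at least 5 CPM. Spearman's rho was 1 for CG42465 and CG18539, the only such features, and 0.976 for the other 3. The libraries share their depth and scaling in both measures. CG42465 (FBgn0259955, 2L:3700195-3700658, plus strand) ends 15 bases before Sfp24C1, CG43145 begins 733 bases after it, and CG42481 lies 1936 bases from Sfp70A4 and 2611 bases from SP on 3L. Of the 8019 ranked features that could be placed by symbol, 72, or 0.898%, lay within 5000 bases of a member, a distance chosen after these positions were seen.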

How the data were processed

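The values are the authors' raw read counts, deposited as 1 table of 22887 features in 8 libraries. The submitters' processing notes name the read trimmer Trimmomatic 0.36, the aligner HISAT2 and the build dm6. The sources used here do not give how reads were counted (tool, annotation, strand, reads that map to several places). Per the labels' protocols, 650 ng of total RNA, extracted with Trizol, entered a total RNA library kit with 8 PCR cycles, and each group's libraries came from separate dissections.

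The counts were scaled with edgeR 4.0.16 (TMM) in R 4.3.3, filtered with filterByExpr at a minimum count of 10, and fitted by quasi-likelihood over all 8 libraries, with no term but the group and 4 residual degrees of freedom. P-values were adjusted by the Benjamini-Hochberg method over 14246 features, and a gene was called at 0.05 or less. Standard errors were derived from the log2 fold change and the F statistic of the fit. CPM used the scaled library sizes, and each group has n = 2. Where a group had 0 counts, a fold is a lower bound with 3 counts put over the group; intervals and bounds cover counting error only. Positions are 1-based on dm6, from the Ensembl annotation of the same assembly, which matched all 47 members by symbol or older symbol. The script was tested on simulated counts.

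The members and gene lists were chosen with earlier results of these data known. The rule for named genes took the 10 members with the highest mean CPM, members called in a comparison, in each mutant the 2 largest and 2 smallest changes against w1118, from the lists their called genes, and the 5 genes most like the members' sum. Of the members called only between the single mutants, most are given as a count. The listed genes CG6069 and msa were not matched and are not used here. Alternatives were relative log expression and upper quartile scaling, DESeq2 1.42.0, no filter, a minimum count of 50, the compared groups alone, a replicate block, a gland covariate, ribosomal RNA features left out, and each library left out in turn. The gland covariate was the log2 summed CPM of the 33 genes on the sex peptide and other gland protein lists, all outside the 47, Dup99B among them.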

Additional observations from a re-analysis of the deposited data

Results flagged for a closer look

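Obp56i, an odorant-binding protein family gene of the other gland proteins, was picked out because the effect of the Dis3L2 mutation differed with the Tailor genotype. It had 45.4 and 46.5 CPM (w1118), 53.7 and 44.4 CPM (Tailor mutant), 16.6 and 18.4 CPM (Dis3L2 mutant) and 49.1 and 44.6 CPM (double mutant). Only the Dis3L2 mutant libraries were low. Against w1118 the Dis3L2 mutant had -1.39 ± 0.15 on the log2 scale (adjusted p = 0.00297), and against the Tailor mutant the double mutant had -0.06 ± 0.14 (adjusted p = 0.783). The interaction in edgeR's quasi-likelihood fit was 1.32 ± 0.21 (adjusted p = 0.0205).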

How the results depend on the processing

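Relative log expression scaling, upper quartile scaling, a minimum count of 50 and leaving out ribosomal RNA features kept the direction of every median and each count of called members within 1.5 times. Other settings moved the counts. In the Tailor mutant against w1118 (0 called) the count was 1 with DESeq2, 1 with the gland covariate and 0 to 26 with a library left out, and the median of 0.64 ran from -0.16 to 1.15 with a library left out. In the Dis3L2 mutant against w1118 (11) it was 24 with no filter, 38 in the compared groups alone, 20 with DESeq2 and 0 to 39 with a library left out. In the double mutant against w1118 (1) it was 6 with no filter, 24 with the covariate, 15 in the compared groups alone, 9 with DESeq2 and 0 to 15 with a library left out. In the double mutant against the Tailor mutant (6) it was 18, 20, 0, 21 and 0 to 38 under the same settings, and against the Dis3L2 mutant (3) it was 15, 10, 32, 17 and 0 to 34. In the Dis3L2 mutant against the Tailor mutant (34) it was 12 with the covariate, 7 in the compared groups alone and 1 to 39 with a library left out. The interaction (0) was called for 1 with no filter, 10 with the covariate, 2 with DESeq2 and 0 to 21 with a library left out, and its median of 0.41 ran from 0.04 to 1.16. The covariate brought the median of 0.64 in the Tailor mutant against w1118 to 0.04, that of -0.44 in the double mutant against w1118 to -0.03, and the others to -0.33 in the Dis3L2 mutant against w1118, -0.53 against the Tailor mutant, and in the double mutant to -0.09 against the Tailor mutant and 0.31 against the Dis3L2 mutant. With a library left out the median ran from -0.65 to -0.16 in the double mutant against w1118, from 0.7 to 1.34 against the Dis3L2 mutant, from -1.57 to -0.11 in the double mutant against the Tailor mutant and from -2.79 to -1.36 in the Dis3L2 mutant against the Tailor mutant. Among 70 log2 fold changes of named members, the covariate reversed 10. In the Tailor mutant against w1118 these were Sfp79B (-1.45) and Acp76A (-0.63), and in the Dis3L2 mutant against w1118 Sfp93F (1.23, adjusted p = 0.00413 by edgeR). In the Dis3L2 mutant against the Tailor mutant they were Acp26Aa (0.18), Mst57Db (0.43), Acp53C14b (0.13), Acp53C14c (0.95), Sfp70A4 (0.24), Sfp33A4 (0.39) and Acp76A (0.61). In the Tailor mutant against w1118, leaving out a library gave -8.18 to 0.08 for Sfp87B, -3.91 to 4.44 for Sfp79B and -1.97 to 3.36 for Acp76A, each turned by leaving out Tailor mutant replicate 1. The cause was not tested, but the fits with a library left out and those of the compared groups alone hold fewer samples. Without ribosomal RNA the members' share was 2.67% and 2.5% (w1118), 6.5% and 2.07% (Tailor mutant), 0.75% and 1.03% (Dis3L2 mutant) and 2.7% and 2.07% (double mutant). With the replicate number as a block the counts were 0, 12, 1, 4, 2, 23 and 0 in the order above. The deviations of same-numbered libraries had correlations from -0.306 (Tailor mutant and Dis3L2 mutant) to 0.289 (w1118 and Tailor mutant). Such values, from 2 libraries a group, cannot decide whether the numbers pair the samples. With 2 libraries a group, a member that was not called is not shown to be unchanged.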

Other observations

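Of the fat body list, Fbp1 and Lsp2 were set beside the libraries in which Sfp87B, Acp24A4 and the Sfp24B genes were nearly absent. Fbp1, the receptor for larval storage proteins, had 0 and 0.12 CPM (w1118), 10.4 and 0.08 CPM (Tailor mutant), 0.07 and 0.09 CPM (Dis3L2 mutant) and 10.8 and 17.97 CPM (double mutant). It was called higher in the double mutant than in w1118 (adjusted p = 0.0489 by edgeR's quasi-likelihood test). The larval serum protein Lsp2 had 1.60 and 1.44 CPM (w1118), 7.76 and 1.41 CPM (Tailor mutant), 2.06 and 2.40 CPM (Dis3L2 mutant) and 9.79 and 7.58 CPM (double mutant). Both were highest in Tailor mutant replicate 1 and the 2 double mutant libraries. Dis3L2 mutant replicate 1, where the 6 genes were also low, did not share this. The yolk protein genes of the list did not follow Fbp1 and Lsp2. Yp1, Yp2 and Yp3 had 2.25, 2.95 and 1.44 CPM in double mutant replicate 1, and 6.53, 8.19 and 3.46 CPM in Dis3L2 mutant replicate 1. Apolipophorin (apolpp), the abundant fat body lipid carrier, took another course, with 204 and 164 CPM (w1118), 147 and 202 CPM (Tailor mutant), 58.2 and 65.05 CPM (Dis3L2 mutant) and 72.5 and 51.1 CPM (double mutant), and fell in the Dis3L2 mutant (-1.58 ± 0.23, adjusted p = 0.00781) and the double mutant (-1.57 ± 0.23, adjusted p = 0.00819). These genes were singled out after their values were seen. Of the exon bases of Lsp2, 2096 of 2477 overlap a gene on the other strand, and of those of Yp1, 875 of 1611. With the strand setting not known, the levels of Lsp2 and Yp1 are uncertain.

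Obp56e and Obp56g are odorant-binding protein genes on the list of other gland proteins, and the site where each is made was not tested. Obp56e had 8.63 and 6.70 CPM (w1118), 216 and 1.81 CPM (Tailor mutant), 2.93 and 4.19 CPM (Dis3L2 mutant) and 20.8 and 37.2 CPM (double mutant). Obp56g had 38.4 and 34.7 CPM (w1118), 3.06 and 61.2 CPM (Tailor mutant), 10.2 and 52.6 CPM (Dis3L2 mutant) and 1.09 and 0.94 CPM (double mutant). Obp56e was highest where most members were highest, in Tailor mutant replicate 1. Of its 532 exon bases, 449 overlap a gene on the other strand, so its level is uncertain while the strand setting is not known. Obp56g was low there and in the double mutant, as Ebp and the 6 genes were.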
